A study of Mus with 18 samples.

Results

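Treated and untreated gastrocnemius muscle of mice were compared over 6 of the 18 RNA-seq libraries of a study of moringa isothiocyanate-1 (MIC-1), an isothiocyanate from the seeds of Moringa oleifera. The members were the 3 muscle libraries labeled LPS-MIC-1 and the 3 labeled control, and of 21401 genes listed for muscle, 9519 had a mean expression level over 1 FPKM (fragments scaled for transcript length and for the mapped reads of the library) in these 6 libraries and were tested. All mice were wild-type C57BL/6 males. LPS-MIC-1 mice were gavaged with MIC-1 at 80 mg/kg of body weight in dilute DMSO on each of 3 days and then injected intraperitoneally with lipopolysaccharide (LPS) at 10 mg/kg, and control mice got vehicle alone, named as saline in the labels and as DMSO by mouth in the methods. One more group of 3 muscle libraries, from mice given LPS without MIC-1, was read side by side. The gastrocnemius, a mostly fast-twitch calf muscle, was taken 16 h after the LPS injection and trimmed of fat and connective tissue. No group got MIC-1 without LPS, so the effect of MIC-1 alone was not measured.

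LPS is a cell wall component of Gram-negative bacteria that Toll-like receptor 4 senses, and it sets off NF-κB signaling, cytokine release and a body-wide acute-phase response in which plasma proteins that bind iron, lipids and proteases are made. Skeletal muscle takes part as a target tissue. Cytokines and glucocorticoids turn on its ubiquitin ligases and autophagy genes, protein is broken down, and fuel use moves from glucose to fatty acids, while fibroblasts and vessel cells within the muscle maintain the collagen matrix around the fibers.

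Calls came from limma on log2(FPKM + 0.1). They needed a log2 fold change above 1 or below −1 as well as a p under 0.05 after Benjamini-Hochberg adjustment. Log2 fold changes are given on that scale as value ± standard error (SE). Values written as n-fold are ratios of the mean FPKM of LPS-MIC-1 to that of control, without the 0.1 added. Levels are listed for replicates 1, 2 and 3 in that order. By this rule, 930 genes were called higher in LPS-MIC-1 than in control (9.77% of those tested) and 554 were called lower (5.82%), and the median log2 fold change of all tested genes was 0.02. All LPS-MIC-1 libraries lay above all control libraries for 33.9% of tested genes and below them for 30.6%. Genes named for their fold change had to have groups that did not overlap, so for them a lack of overlap was fixed by the choice. Replicates were close, with a median coefficient of variation of 4.85% in control and 5.36% in LPS-MIC-1 among genes over 10 FPKM. The labels do not say whether each library came from a separate animal, so the p-values measure the spread between these libraries, which may be technical. The share of the summed FPKM that fell to the top 10 genes was 44.1 to 44.2% in control libraries and 35.4 to 35.8% in LPS-MIC-1 libraries. Read depth per library is unknown from FPKM, and the mean normalized counts of the comparison summed to 13866506, with a median of 247 per tested gene.

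The labels were used as given, and 2 features of the libraries touch several results. In the libraries labeled LPS, the summed level of 27 acute-phase protein genes was 35.8 to 38.3 FPKM, against 37.0 to 38.2 FPKM in control and 1883 to 2108 FPKM in LPS-MIC-1. The LPS libraries thus lay near the control range for this sum, from below it to just above it. Yet 2 of 14 tested members were called higher in LPS than in control, against 0.654% of all genes tested. In the limma fit over 9 libraries these were Saa3 (log2 fold change 3.47, adjusted p = 4.2e-06) and Serpina3n (2.14, adjusted p = 8.9e-04). In LPS-MIC-1 replicate 3, 20 genes were over 5 FPKM and over 5 times the highest of the other 5 libraries, whereas each other library had 0 to 3 such genes. Of these 20 genes, 4 were macrophage markers. The marker list for macrophages and monocytes summed to 19.2 to 21.4 FPKM in control, to between 30.7 and 205.8 FPKM in LPS-MIC-1, with replicate 3 the highest, and to 23.9 to 26.9 FPKM in LPS. Lysozyme 2 (Lyz2) was at 5.27, 3.93 and 78.3 FPKM in the LPS-MIC-1 libraries and the receptor gene Csf1r at 0.666, 1.13 and 12.4 FPKM, while Aif1 was at 0 in all 6. The part of these cells in the results was not tested, and counts without replicate 3 are given beside each program. In bulk tissue, fewer cells of a type and less RNA per cell cannot be told apart.

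**Figure D1:**
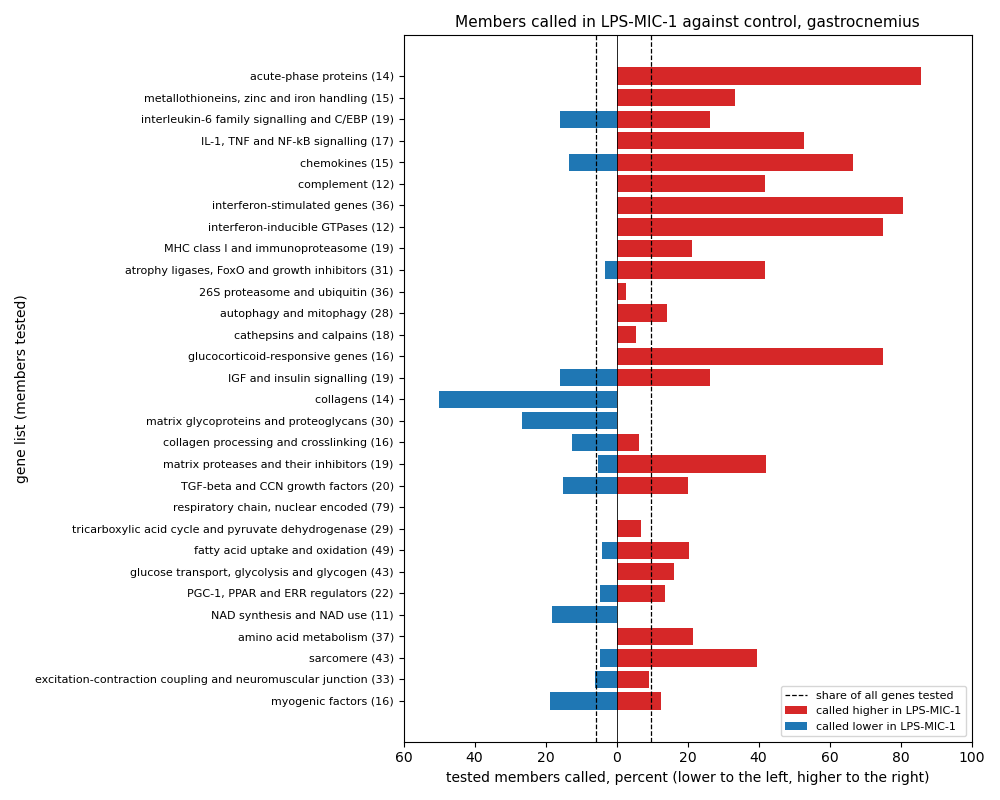
Share of the tested members of 30 gene lists called higher (red bars, to the right) and called lower (blue bars, to the left) in LPS-MIC-1 against control, in percent, with the number tested in brackets. Dashed lines mark the shares among all genes tested, 9.77% and 5.82%. The bars of acute-phase proteins, interferon-stimulated genes, interferon-inducible GTPases and glucocorticoid-responsive genes reach 75% or more on the higher side, the collagen bar reaches 50% on the lower side, and the respiratory chain has no bar.

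Acute-phase, cytokine and interferon genes formed the program with the largest share of higher members. Of its 159 tested members, 88 were called higher and 5 lower, with a median log2 fold change of 1.29. These shares were 55.3% and 3.14%, against 9.77% and 5.82% of all genes tested. Without LPS-MIC-1 replicate 3 the counts were 82 and 4 of 155. Against the LPS libraries, 88 of 155 were called higher and 6 lower (9.67% and 5.44% of all genes tested there), and LPS against control gave 5 higher and 6 lower (0.654% and 0.591%).

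Acute-phase proteins proper had 12 of 14 tested members called higher and none lower, with a median log2 fold change of 3.93. Without LPS-MIC-1 replicate 3 the median was 4.85 and 13 of 14 were called, and with a pseudocount of 1 the median was 2.49. Saa3, a serum amyloid A that binds lipids and is made outside the liver, was listed at 0 in each of the 3 control libraries and stood at 547, 489 and 496 FPKM in LPS-MIC-1 (adjusted p = 6.4e-09). Lipocalin 2 (Lcn2), which withholds iron from bacteria by binding their siderophores, was at 0.445, 0.991 and 0.111 FPKM in control and 1318, 1264 and 1162 FPKM in LPS-MIC-1 (log2 fold change 11.28 ± 0.55, adjusted p = 1.6e-05). Every treated library was far above every control library for both genes, and LPS libraries stood at 0.877, 1.33 and 0.871 FPKM for Saa3 and 0.336, 1.24 and 1.34 FPKM for Lcn2. The protease inhibitor Serpina3n rose from 0.194, 0.07702 and 0.0779 to 53.4, 56.4 and 48.7 FPKM (7.98 ± 0.21, adjusted p = 1.3e-06). Haptoglobin (Hp), which captures free hemoglobin, went from 0.313, 0.373 and 0.502 to 26.5, 26.8 and 24.8 FPKM (5.74 ± 0.15, adjusted p = 1.2e-06). The orosomucoids Orm1 and Orm3, plasma carrier glycoproteins, rose by 6.76 ± 0.36 and 7.30 ± 0.34 on the log2 scale. They rest on few reads, with mean normalized counts of 59 and 84, and close copies such as Orm1 and Orm3 or Saa1 and Saa3 may share reads. The LPS co-receptor gene Cd14 was at 3.39, 3.74 and 15.5 FPKM in LPS-MIC-1 against 0.296, 0.587 and 0.692 FPKM in control, with replicate 3 the highest, and its log2 fold change of 3.31 became 2.61 without that replicate, still called. Saa2 missed the threshold (adjusted p = 0.092), with 5.04, 7.604 and 0 FPKM in the treated libraries and 0 in control, and it was called higher without replicate 3. Liver albumin (Alb), as a marker of another tissue, was at 0.156, 0.503 and 0.274 FPKM in control and 2.604, 2.88 and 2.31 FPKM in LPS-MIC-1. The list of 11 liver markers summed to 1.71 to 1.92 FPKM in control, 4.78 to 5.32 FPKM in LPS and 6.69 to 10.2 FPKM in LPS-MIC-1, with both of its tested genes called higher, and its part in the acute-phase genes was not tested.

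Of 15 tested genes for metallothioneins, zinc and iron handling, 5 were called higher and none lower. Metallothionein 2 (Mt2), a cysteine-rich protein that binds zinc, was at 7.698, 7.78 and 8.41 FPKM in control and 6773, 6627 and 5957 FPKM after treatment, a log2 fold change of 9.64 ± 0.06 (adjusted p = 6.8e-09). Its neighbor Mt1 rose from 30.7, 34.7 and 28.4 to 6342, 6080.5 and 5624 FPKM (7.59 ± 0.08, adjusted p = 6.0e-08), and in LPS both lay between the other groups, at 36.3, 35.6 and 35.5 FPKM for Mt2 and 82.6, 87.5 and 88.5 FPKM for Mt1. The zinc importer Slc39a14 (ZIP14) increased from 2.09, 2.15 and 1.87 to 49.99, 51.2 and 47.4 FPKM (4.54 ± 0.07, adjusted p = 1.9e-07). None of the 3 genes had overlapping groups. Heme oxygenase 1 (Hmox1), which breaks down heme, was 2.51-fold higher (adjusted p = 2.7e-05). The ferritin heavy chain Fth1, the most abundant of the list in control, was at 2427, 2393 and 2406 FPKM in control and 2506, 2717 and 2486 FPKM in LPS-MIC-1 (adjusted p = 0.099).

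Interleukin-6 family and C/EBP genes moved in both directions, 5 of 19 higher and 3 lower. C/EBPδ (Cebpd), a transcription factor of the acute-phase response, rose from 12.3, 13.4 and 13.05 to 399, 422 and 377 FPKM (4.94 ± 0.06, adjusted p = 6.4e-08), and was at 4.58, 5.35 and 4.05 FPKM in LPS. Its relative Cebpb was 4.01-fold higher than in control and Stat3, the factor activated downstream of the interleukin-6 receptor, 4.81-fold higher. The receptor chain Il6ra was at 0.02302, 0 and 0.0232 FPKM in control and 3.44, 1.81 and 3.21 FPKM in LPS-MIC-1 (adjusted p = 3.2e-04). Il6ra also rests on few reads, with a mean normalized count of 63. Suppressors of cytokine signaling went the other way or did not pass the test. Cish, induced by STAT5, fell from 47.3, 46.8 and 47.2 to 1.41, 1.28 and 1.47 FPKM, the largest called fall outside small RNA genes (−4.99 ± 0.07, adjusted p = 1.2e-07). It was also called lower in LPS than in control, at 4.11, 5.05 and 4.11 FPKM. Socs1 fell from 49.4, 49.5 and 47.6 to 4.29, 4.59 and 3.46 FPKM (−3.55 ± 0.11, adjusted p = 2.0e-06), and in LPS it was lower still, at 0.792, 1.38 and 0.429 FPKM. Socs3 was at 6.096, 4.63 and 5.78 FPKM in control and 4.92, 6.11 and 6.49 FPKM in LPS-MIC-1 with overlapping groups (adjusted p = 0.65). The cytokine genes themselves were below the expression filter. Il6 was listed at 0 in control and at 0.152, 0.512 and 0.694 FPKM in LPS-MIC-1, Tnf at 0, 0 and 0.252 and 0.8401, 0.571 and 1.49 FPKM, and Il1b at 0.0635, 0.06302 and 0.0636 and 0.375, 0.361 and 0.171 FPKM, and none of the 3 was tested.

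Genes of interleukin-1, TNF and NF-κB signaling were called higher in 9 of 17 tested members and lower in none, at a median log2 fold change of 1.16. IκBα (Nfkbia), which holds NF-κB in the cytoplasm, rose from 20.3, 23.1 and 19.5 to 115, 114 and 107 FPKM (2.41 ± 0.07, adjusted p = 2.0e-06). The TWEAK receptor Tnfrsf12a (Fn14) went from 13.4, 15.6 and 16.2 to 173, 176 and 169 FPKM (3.52 ± 0.07, adjusted p = 5.9e-07), and the adhesion molecule Icam1 from 0.855, 1.06 and 0.921 to 7.54, 6.93 and 5.99 FPKM (2.72 ± 0.13, adjusted p = 1.6e-05). For these 3 genes every treated library was above every control library. Irak3, an inhibitor of Toll-like receptor signaling, was called although its groups overlapped, and without replicate 3 it fell below the expression filter.

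Chemokines had 10 of 15 tested members higher and 2 lower, and without replicate 3 these became 8 and 1 of 14. Ccl19, which guides dendritic cells and T cells, rose from 2.09, 2.07 and 2.22 to 47.4, 43.4 and 45.3 FPKM (4.35 ± 0.06, adjusted p = 1.3e-07), and the interferon-γ-induced Cxcl9 from 0.622, 0.86 and 1.17 to 38.3, 36.3 and 34.3 FPKM (5.25 ± 0.20, adjusted p = 5.5e-06). Chemoattractants for monocytes and neutrophils were scarce in control. Ccl2 was at 0.2396, 0.119 and 0.119 FPKM there and 11.4, 9.03 and 10.8 FPKM in LPS-MIC-1, and Cxcl1 at 0.286, 0.283 and 0.0951 and 12.6, 14.02 and 11.7 FPKM. Both rest on few reads, with mean normalized counts of 46 and 70. Cxcl12, which retains stem cells and leukocytes in tissues, fell from 28.8, 28.4 and 29.8 to 5.74, 6.67 and 5.08 FPKM (−2.30 ± 0.10, adjusted p = 9.5e-06). Ccl3 stood at 1.42, 0.566 and 13 FPKM in LPS-MIC-1 and its call rested on replicate 3, without which it was below the filter, and Ccl9, at 1.59, 1.83 and 3.98 FPKM, was not called without replicate 3 (log2 fold change 0.86). Ccl21a, called lower at adjusted p = 0.034, kept its call in only 2 of 6 fits that each left out 1 library.

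Markers of neutrophils were at higher levels in the same libraries, the list summing to 2.03 to 3.35 FPKM in control, 14.6 to 20.4 FPKM in LPS-MIC-1 and 1.97 to 2.27 FPKM in LPS. S100a8, a calcium-binding protein of neutrophil granules, was at 0, 0 and 0.357 FPKM in control and 7.25, 7.47 and 7.41 FPKM in LPS-MIC-1, and Ngp was listed at 0 in control and stood at 3.53, 2.68 and 3.28 FPKM in LPS-MIC-1. Of 4 tested markers, 2 were called higher, while Elane and Stfa2 were at 0 in all 6 libraries. Of the macrophage list, 2 of 6 tested genes were called higher, and 1 of 5 without replicate 3. The median log2 fold change of this list was 1.21 with all libraries, and all 6 tested genes were above 0. Without replicate 3 the median was −0.24, with 2 genes above 0 and 3 below. No lymphocyte marker passed the filter, and that list summed to 1.05 to 1.73 FPKM in control and 1.60 to 1.66 FPKM in LPS-MIC-1. What part these cells had in the immune genes above was not tested.

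Complement had 5 of 12 tested members higher and none lower. Component C3, at which all complement pathways meet, rose from 1.39, 1.19 and 1.58 to 9.82, 9.23 and 9.19 FPKM (2.68 ± 0.12, adjusted p = 8.7e-06), factor B (Cfb) from 0.399, 0.283 and 0.544 to 7.81, 6.38 and 7.43 FPKM (3.87 ± 0.22, adjusted p = 2.9e-05), and the C1 inhibitor Serping1 was 2.71-fold higher.

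Interferon-stimulated genes were higher in 29 of 36 tested members and lower in none, with a median log2 fold change of 1.61, and without replicate 3 in 25 of 34. Irf7, the transcription factor that amplifies type I interferon, rose from 2.53, 2.64 and 2.76 to 25.03, 26.1 and 28.4 FPKM (3.28 ± 0.07, adjusted p = 6.4e-07). The antiviral effector Rsad2 (viperin) rose from 1.183, 0.995 and 1.27 to 17.8, 16.9 and 16.2 FPKM, Ifit3 from 2.599, 1.61 and 2.08 to 33.01, 32.1 and 31.5 FPKM, and the membrane protein Ifitm3, the most abundant of the list, from 68.5, 67.3 and 72.8 to 419, 378 and 386 FPKM (2.50 ± 0.05, adjusted p = 6.1e-07). For each of these 4 genes the groups did not overlap and the LPS libraries were near control, with Irf7 at 1.76, 2.51 and 2.79 FPKM. Interferon-inducible GTPases, which attack the vacuoles of intracellular pathogens, had 9 of 12 higher and none lower, led by Gbp2, which rose from 2.93, 2.02 and 2.91 to 35.3, 33.8 and 32.4 FPKM (3.66 ± 0.15, adjusted p = 6.9e-06). Antigen presentation genes are also induced by interferon. Of 19 tested MHC class I and immunoproteasome genes, 4 were called higher, among them the peptide transporter Tap1 (from 2.37, 1.88 and 2.14 to 11.6, 12.9 and 13.2 FPKM) and the MHC class I transactivator Nlrc5 (2.34 ± 0.19 on the log2 scale). The most abundant, β2-microglobulin (B2m), was at 165, 175 and 175 FPKM in control and 335, 316 and 314 FPKM after treatment, a log2 fold change of 0.91 ± 0.04 that passed the adjusted p (1.3e-05) but not the fold threshold.

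**Figure D2:**
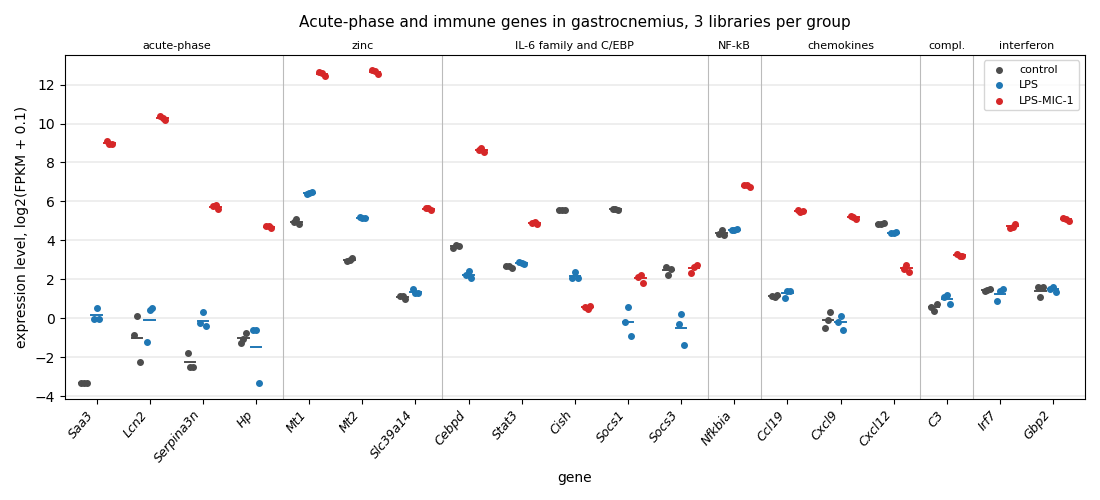
Expression level, as log2(FPKM + 0.1), of 19 acute-phase and immune genes in the control (gray), LPS (blue) and LPS-MIC-1 (red) libraries, 3 each, with a short line at each group mean and gene groups named above. LPS-MIC-1 lies above both other groups for 15 of the genes, including Saa3, Lcn2, Mt1 and Mt2, and below control for Cish, Socs1 and Cxcl12.

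The wasting program had 36 of 148 tested members higher and 4 lower, a median log2 fold change of 0.33, and the same 36 and 4 counts without LPS-MIC-1 replicate 3. These shares were 24.3% and 2.7%, against 9.77% and 5.82% of all genes tested. Against the LPS libraries the counts were 31 higher and 5 lower of 149 (9.67% and 5.44% of all genes tested there).

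The list of atrophy-linked ubiquitin ligases, which mark muscle proteins for breakdown, FoxO genes and growth inhibitors had 13 of 31 members higher and 1 lower. Trim63 (MuRF1), which targets thick-filament proteins, rose from 88.3, 88.6 and 89.2 to 2259.9, 2323 and 2206 FPKM (4.67 ± 0.03, adjusted p = 6.8e-09). Fbxo32 (atrogin-1), the F-box protein first described with it, rose from 33.5, 33.4 and 33.6 to 228, 231 and 216 FPKM (2.74 ± 0.04, adjusted p = 1.3e-07). Every treated library was above every control library for both, and the LPS libraries stood at 79.4, 73.9 and 83.2 FPKM for Trim63 and 22.2, 21.01 and 22.5 FPKM for Fbxo32. Their regulators Foxo1 and Foxo3, FoxO transcription factors, were higher too, Foxo1 from 2.64, 2.79 and 2.67 to 35.6, 37.8 and 34.1 FPKM (3.68 ± 0.06, adjusted p = 2.6e-07). Foxo3 was low in control, at 0.571, 0.351 and 0.356 FPKM, and 8.54-fold higher in LPS-MIC-1 (log2 fold change 2.85 ± 0.22). The FoxO target 8430408G22Rik, now named Depp1, had one of the largest rises of all genes, from 1.96, 2.73 and 2.29 to 629, 626 and 574 FPKM (7.99 ± 0.12, adjusted p = 1.4e-07).

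Inhibitors of growth were part of the same list. Ddit4 (REDD1), which restrains mTORC1, rose from 3.64, 4.39 and 4.88 to 231, 254 and 234 FPKM (5.77 ± 0.11, adjusted p = 3.8e-07), while its paralog Ddit4l (REDD2) fell from 182, 183 and 179 to 24.8, 24.1 and 23.2 FPKM (−2.91 ± 0.04, adjusted p = 1.2e-07). The cell cycle inhibitor Cdkn1a (p21) went from 6.22, 7.54 and 7.06 to 136, 137 and 135 FPKM (4.28 ± 0.07, adjusted p = 2.6e-07). Myostatin (Mstn), the secreted inhibitor of muscle growth, was at 26.4, 26.6 and 28.6 FPKM in control, 38.1, 37.1 and 41.02 FPKM in LPS and 65.1, 59.1 and 58.4 FPKM in LPS-MIC-1 (1.16 ± 0.06, adjusted p = 1.8e-05). Of the other abundant ligases, Asb2 was at 455, 482 and 457 FPKM in control and 438, 467 and 413 FPKM in LPS-MIC-1 with overlapping groups (adjusted p = 0.23), and Trim54 (MuRF3) differed by 0.37 ± 0.04 on the log2 scale, below the fold threshold.

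The 26S proteasome degrades the marked proteins. Of 36 tested proteasome and ubiquitin genes, 1 was called higher and none lower. Yet 30 of 36 had a log2 fold change above 0, their median was 0.25, and 26 passed the adjusted p in the higher direction at any fold change against 3 in the lower (29.3% and 26.2% of all genes tested). The ubiquitin gene Ubb differed by 0.65 ± 0.06, below the fold threshold. Autophagy and mitophagy genes had 4 of 28 higher and none lower (14.3% higher, against 9.77% of all genes tested). Gabarapl1, a member of the ATG8 family that builds autophagosomes, rose from 13.9, 15.4 and 14.1 to 189, 204 and 195 FPKM (3.75 ± 0.06, adjusted p = 1.5e-07), the initiating kinase Ulk1 from 18.5, 25.2 and 21.5 to 77.3, 80.4 and 67.6 FPKM (1.79 ± 0.13, adjusted p = 7.0e-05), and the mitophagy receptor Bnip3 and Map1lc3b were 2.44-fold and 2.21-fold higher. In the list of lysosomal cathepsins and calcium-activated calpains, only cathepsin L (Ctsl) was called, from 17.6, 16.4 and 18.8 to 50.7, 47.4 and 48.4 FPKM, and the median of 18 genes was −0.08.

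Glucocorticoid-responsive genes were called higher in 12 of 16 tested members and lower in none, at a median log2 fold change of 1.94. Fkbp5, a co-chaperone of the glucocorticoid receptor, rose from 6.19, 7.37 and 6.26 to 94.8, 98.8 and 88.8 FPKM (3.82 ± 0.08, adjusted p = 6.1e-07) and was at 10.9, 11.3 and 10.8 FPKM in LPS. Glutamine synthetase (Glul), through which muscle exports nitrogen, rose from 41.2, 45.4 and 42.9 to 650.0, 664 and 629 FPKM (3.91 ± 0.05, adjusted p = 7.2e-08), and Klf15, a factor for amino acid breakdown, from 9.25, 8.66 and 7.84 to 88.4, 92.9 and 84.8 FPKM (3.36 ± 0.07, adjusted p = 6.1e-07). The leucine zipper gene Tsc22d3 (GILZ), the clock gene Per1 and the kinase Sgk1 were 6.86-fold, 10.2-fold and 3.47-fold higher. Control, LPS and LPS-MIC-1 libraries did not overlap for Fkbp5, with LPS between the others.

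Insulin-like growth factor and insulin signaling had 5 of 19 members higher and 3 lower. The insulin receptor substrates moved apart, Irs1 falling from 19.01, 18.3 and 19.1 to 3.21, 3.11 and 3.09 FPKM (−2.55 ± 0.06, adjusted p = 6.4e-07) and Irs2 rising from 3.596, 3.701 and 3.56 to 10.04, 10.8 and 8.85 FPKM (1.42 ± 0.09, adjusted p = 4.3e-05). Igf1, the growth factor that maintains muscle mass, was at 6.11, 6.58 and 6.605 FPKM in control and 2.96, 3.23 and 3.06 FPKM in LPS-MIC-1 (−1.04 ± 0.08, adjusted p = 8.7e-05), close to the fold threshold. The binding protein Igfbp5 fell from 173, 161 and 163 to 33.7, 32.5 and 30.5 FPKM (−2.36 ± 0.05, adjusted p = 6.4e-07), with LPS between them at 85.8, 83.1 and 85.96 FPKM, whereas Igfbp3 was 2.19-fold higher than control.

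**Figure D3:**
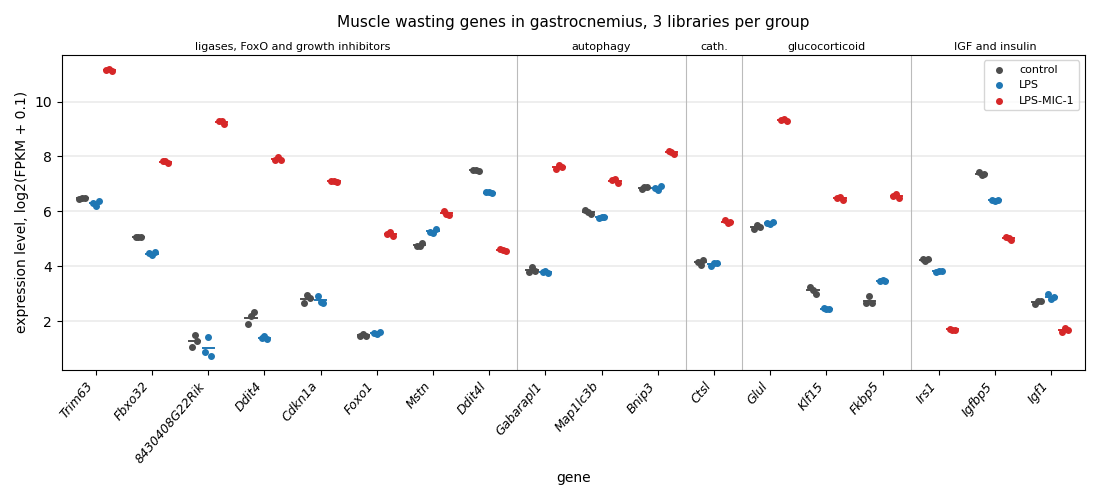
Expression level, as log2(FPKM + 0.1), of 18 muscle wasting genes in the control (gray), LPS (blue) and LPS-MIC-1 (red) libraries, 3 each, with a short line at each group mean and gene groups named above. Ligase, FoxO, autophagy and glucocorticoid-responsive genes are highest in LPS-MIC-1, while Ddit4l, Irs1, Igfbp5 and Igf1 are lowest there.

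The matrix program had more members lower than higher, 21 and 13 of 99 tested, and a median log2 fold change of −0.33. These shares, 21.2% lower and 13.1% higher, both lay above those of all genes tested, 5.82% and 9.77%. Without LPS-MIC-1 replicate 3 the counts were 21 lower and 12 higher of 97. Against LPS, 23 of 97 were lower and 13 higher (5.44% and 9.67% of all genes tested there). LPS against control had 1 lower and 1 higher (0.591% and 0.654%).

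Collagens, the main structural proteins of the matrix, were mostly lower. Of 14 tested collagen genes, 7 were called lower and none higher, with a median log2 fold change of −0.998 that lay between −1.26 and −0.71 under the other scalings, the larger pseudocount and without replicate 3. Type I collagen, the main fibrillar collagen, fell in its α1 chain Col1a1 from 13.2, 12.1 and 12.3 to 4.33, 4.43 and 4.54 FPKM (−1.48 ± 0.06, adjusted p = 7.9e-06). Its α2 chain Col1a2 was at 10.1, 10.9 and 11.4 FPKM in control and 6.43, 5.88 and 5.25 FPKM in LPS-MIC-1, a difference of −0.88 ± 0.09 below the fold threshold. Type III collagen (Col3a1) fell from 17.6, 18.7 and 18.9 to 7.53, 6.99 and 7.18 FPKM (−1.34 ± 0.06, adjusted p = 8.9e-06). For these chains the treated libraries were all below the control libraries, and LPS libraries stood near control, with Col1a1 at 13.1, 12.3 and 12.8 FPKM. The microfibrillar type VI chains Col6a1 and Col6a2 fell by 1.43 and 1.76 on the log2 scale, and Col15a1, of the basement membrane zone, from 6.44, 6.71 and 6.06 to 1.07, 1.11 and 1.09 FPKM (−2.45 ± 0.09, adjusted p = 5.5e-06). Basement membrane collagen IV differed from the others. Col4a1 was at 26.7, 26.2 and 25.5 FPKM in control, 18.9, 18.9 and 19.1 FPKM in LPS and 48.8, 48.4 and 46.1 FPKM in LPS-MIC-1 (0.87 ± 0.04, adjusted p = 1.6e-05), and Col4a2 differed by 0.53 ± 0.05, both above control without overlap and below the fold threshold.

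Matrix glycoproteins and proteoglycans had 8 of 30 members lower and none higher. Sparcl1 (hevin) fell from 51.3, 48.3 and 54.1 to 12.3, 11.1 and 10.7 FPKM (−2.16 ± 0.07, adjusted p = 2.9e-06), elastin (Eln) from 6.63, 5.996 and 5.81 to 1.92, 1.44 and 1.51 FPKM (−1.86 ± 0.13, adjusted p = 7.6e-05), and fibulin 2 (Fbln2) from 7.01, 7.11 and 6.599 to 1.67, 2.32 and 1.62 FPKM (−1.85 ± 0.15, adjusted p = 1.3e-04). Decorin (Dcn), a small proteoglycan that binds collagen fibrils and TGF-β, was the most abundant and lay the other way, at 68.2, 67.2 and 72.7 FPKM in control and 127, 121 and 111 FPKM in LPS-MIC-1 (0.79 ± 0.06, below the fold threshold). Among genes for collagen processing, 2 of 16 were lower and 1 higher (12.5% and 6.25%, against 5.82% and 9.77% of all genes tested). The collagen chaperone Serpinh1 (HSP47) fell from 45.2, 44.98 and 44.4 to 13.7, 13.5 and 12.5 FPKM (−1.76 ± 0.05, adjusted p = 1.6e-06) and the procollagen proteinase enhancer Pcolce by 1.20 on the log2 scale, while the procollagen proteinase Adamts2 rose from 1.24, 1.103 and 1.56 to 5.44, 6.45 and 5.96 FPKM (2.12 ± 0.15, adjusted p = 7.0e-05).

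Of the matrix proteases and their inhibitors, 8 of 19 were called higher and 1 lower. The list went both ways, with 10 members above 0 and 9 below, a median log2 fold change of 0.20, and 9 higher and 6 lower by the adjusted p at any fold change. The urokinase receptor Plaur rose from 0.502, 0.831 and 0.559 to 10.2, 11.1 and 10.3 FPKM (3.89 ± 0.18, adjusted p = 1.2e-05). The serine protease Htra1 increased from 16.9, 19.7 and 17.4 to 137, 142 and 131 FPKM (2.92 ± 0.07, adjusted p = 7.7e-07), and the metalloproteinase inhibitor Timp1 from 0, 0.513 and 0.413 to 5.61, 6.72 and 7.4 FPKM (4.39 ± 0.69, adjusted p = 0.0022). The groups did not overlap for any of these 3 genes. The membrane protease Mmp15 fell by 1.22 on the log2 scale. Among TGF-β and CCN family genes, 4 of 20 were higher and 3 lower. Cyr61 (CCN1), a matricellular protein, rose from 13.5, 14.4 and 13.1 to 54.4, 52.4 and 51.6 FPKM (1.94 ± 0.05, adjusted p = 1.3e-06), with LPS lower than control at 5.601, 6.07 and 6.12 FPKM. Ltbp4, which stores latent TGF-β in the matrix, fell from 19.5, 19.9 and 18.3 to 5.06, 5.92 and 4.99 FPKM (−1.84 ± 0.08, adjusted p = 1.1e-05), and Smad7, the feedback inhibitor of TGF-β signaling, was 2.17-fold higher.

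Markers of the cells that make the matrix moved beside these genes, and their part in the matrix result was not tested. Of 7 tested fibroblast and fibro-adipogenic markers, 2 were higher and 3 lower. The whole list summed to 79.0 to 90.3 FPKM in control, 72.9 to 94.0 FPKM in LPS and 120.0 to 132.3 FPKM in LPS-MIC-1. Thy1 fell from 6.53, 6.44 and 5.29 to 1.11, 1.07 and 0.803 FPKM and Cd34 from 14.8, 12.9 and 14.7 to 3.53, 3.297 and 4.22 FPKM, while Ly6a (Sca-1), also an interferon-inducible gene, rose from 13.4, 10.6 and 11.6 to 42.5, 39.99 and 46.2 FPKM. Endothelial markers summed to 257.7 to 263.7 FPKM in control and 208.8 to 238.8 FPKM in LPS-MIC-1, with 1 of 12 higher and 2 lower. The tight junction gene Cldn5 rose from 10.7, 9.55 and 10.3 to 30.6, 34.3 and 29.6 FPKM, and the VEGF receptor Kdr fell from 8.37, 7.65 and 7.49 to 2.74, 2.69 and 2.35 FPKM. Smooth muscle and pericyte markers summed to 116.4 to 120.9 FPKM in control, 112.2 to 117.5 FPKM in LPS and 84.5 to 96.2 FPKM in LPS-MIC-1. Acta2, the smooth muscle actin, fell from 18.4, 20.9 and 19.95 FPKM in control to 6.73, 5.91 and 6.79 FPKM in LPS-MIC-1.

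**Figure D4:**
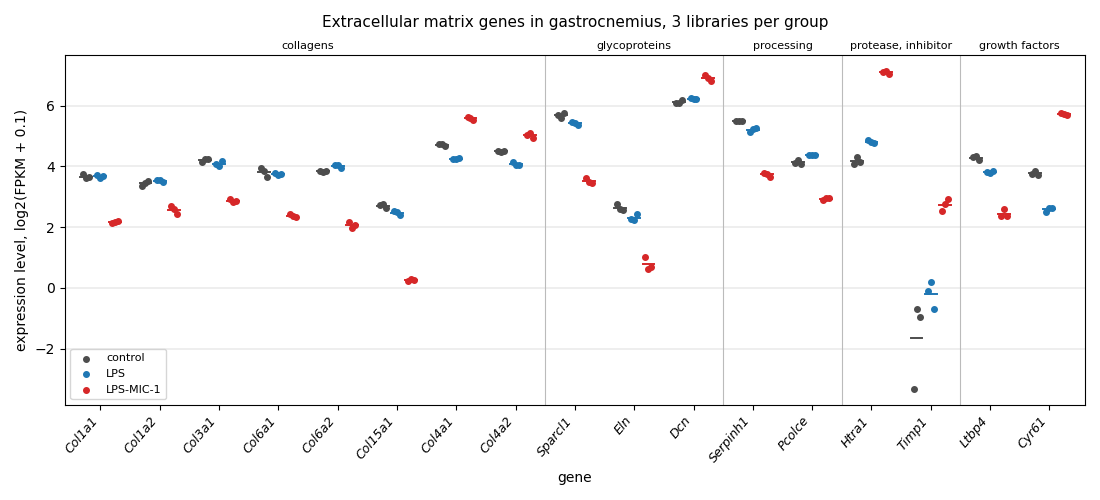
Expression level, as log2(FPKM + 0.1), of 17 extracellular matrix genes in the control (gray), LPS (blue) and LPS-MIC-1 (red) libraries, 3 each, with a short line at each group mean and gene groups named above. Col1a1, Col3a1, Col6a1, Col6a2 and Col15a1 are lowest in LPS-MIC-1, whereas Col4a1, Col4a2, Htra1 and Timp1 are highest there.

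The metabolic program had 30 of 270 tested members higher and 5 lower, with a median log2 fold change of −0.09, and 27 and 7 of 267 without LPS-MIC-1 replicate 3. These shares, 11.1% and 1.85%, lay near the share of all genes called higher and below that called lower, and its lists are given apart. At any fold change, 112 members passed the adjusted p in the lower direction and 71 in the higher (26.2% and 29.3% of all genes tested). Against LPS, 26 of 271 were higher and 12 lower, shares near the 9.67% and 5.44% of all genes tested there.

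Pdk4 and genes of fat handling were among the rises. Pdk4, the kinase that shuts off pyruvate dehydrogenase, went from 35.5, 33.7 and 35.2 to 1092, 1071 and 1047 FPKM (4.94 ± 0.04, adjusted p = 9.7e-09), and LPS libraries were below control at 24.9, 25.5 and 27.1 FPKM. Besides Pdk4, only the pyruvate dehydrogenase phosphatase Pdp2 was called among 29 tested genes of the tricarboxylic acid cycle and pyruvate dehydrogenase. The share of this list called higher was 6.9%, against 9.77% of all genes tested. Fatty acid genes were higher in 10 of 49 members and lower in 2. Angptl4, a secreted inhibitor of lipoprotein lipase, rose from 0.808, 1.14 and 0.641 to 36.4, 35.9 and 34.2 FPKM (5.24 ± 0.18, adjusted p = 3.8e-06), and the mitochondrial carrier Ucp3 from 51.2, 51.7 and 51.5 to 653, 631 and 602 FPKM (3.61 ± 0.04, adjusted p = 6.0e-08). The lipid droplet coats Plin4 and Plin5 were 9.68-fold and 7.34-fold higher, and the triglyceride lipase Pnpla2 (ATGL) rose from 139, 141 and 129 to 469, 494 and 431 FPKM (1.77 ± 0.06, adjusted p = 3.8e-06). The fatty acid ligase Acsl3 fell from 9.32, 9.98 and 9.57 to 2.37, 2.23 and 2.37 FPKM (−2.01 ± 0.07, adjusted p = 3.8e-06). The carnitine palmitoyltransferase of muscle, Cpt1b, through which fatty acids enter mitochondria, was at 119, 115 and 113 FPKM in control and 108, 115 and 106 FPKM in LPS-MIC-1 with overlapping groups (adjusted p = 0.19).

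Glucose genes had 7 of 43 members higher and none lower (16.3% higher, against 9.77% of all genes tested). The insulin-independent transporter Slc2a1 (GLUT1) rose from 3.48, 4.38 and 3.93 to 11.4, 12.9 and 14.02 FPKM (1.68 ± 0.12, adjusted p = 6.6e-05), whereas the insulin-responsive transporter Slc2a4 (GLUT4) was at 254, 264 and 282 FPKM in control and 348, 366 and 329 FPKM in LPS-MIC-1 (0.39 ± 0.06, below the fold threshold) and at 335, 335 and 349 FPKM in LPS. Txnip, which restrains glucose uptake, was 2.12-fold higher and Ppp1r3c, which directs a phosphatase to glycogen, 2.78-fold. The pyruvate kinase gene Pkm2 was at 22.6, 23.4 and 22.02 FPKM in control and 54.1, 50.2 and 122 FPKM in LPS-MIC-1, and its log2 fold change of 1.61 became 1.20 without replicate 3, still called. The highly abundant glycolytic enzymes Aldoa and Gapdh were lower by less than the fold threshold, Aldoa with 31255, 32236 and 31765 FPKM in control and 25043, 25485 and 23424 FPKM in LPS-MIC-1 (−0.37 ± 0.04, adjusted p = 4.6e-04).

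Respiratory chain genes were lower by small amounts. Of 79 nuclear-encoded subunits, 75 had a log2 fold change below 0, none was called, and 64 passed the adjusted p in the lower direction at any fold change against 0 in the higher (26.2% and 29.3% of all genes tested). Their median log2 fold change was −0.37, between −0.39 and −0.34 under the other scalings, the larger pseudocount and without replicate 3, and their summed level was 50040 to 53350 FPKM in control, 51380 to 53110 FPKM in LPS and 39610 to 42550 FPKM in LPS-MIC-1. Cytochrome oxidase subunit Cox8b, for example, was at 2389, 2709 and 2734 FPKM in control and 2023, 1917 and 2022 FPKM in LPS-MIC-1 (−0.39 ± 0.06, adjusted p = 0.0019). None of 9 mitochondrial-genome genes was found in the table. The coactivator Ppargc1a (PGC-1α), which drives mitochondrial genes, was at 1.96, 2.698 and 3.86 FPKM in control, 3.76, 3.86 and 4.19 FPKM in LPS and 1.16, 1.799 and 2.07 FPKM in LPS-MIC-1, with control and LPS-MIC-1 overlapping (adjusted p = 0.092). In its list of 22 regulators, 3 were higher and 1 lower (13.6% and 4.55%), shares near the 9.77% and 5.82% of all genes tested. Ppara, the fatty acid receptor, rose from 0.709, 0.571 and 0.641 to 3.17, 3.78 and 3.599 FPKM (2.29 ± 0.16, adjusted p = 6.6e-05), and Prkag3, the AMP-activated kinase subunit of fast fibers, fell from 149, 152 and 147 to 51.9, 55.1 and 49.3 FPKM (−1.52 ± 0.05, adjusted p = 2.8e-06).

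NAD genes had 2 of 11 lower and none higher. Itgb1bp3, now named Nmrk2, the muscle kinase that makes NAD from nicotinamide riboside, was at 223, 222 and 235 FPKM in control, 393, 402 and 405 FPKM in LPS and 13.2, 16.1 and 14.5 FPKM in LPS-MIC-1 (−3.95 ± 0.07 against control, adjusted p = 3.8e-07). Thus LPS stood above control and LPS-MIC-1 below it, with no overlap. Nampt, which makes NAD from nicotinamide, differed by −0.23 ± 0.04, below the fold threshold. Amino acid metabolism had 8 of 37 higher and none lower, and without replicate 3 it had 6 higher and 2 lower of 35. The amino acid transporter Slc7a5 (LAT1) rose from 0.773, 0.856 and 1.02 to 2.69, 3.31 and 3.796 FPKM (1.77 ± 0.19, adjusted p = 3.9e-04), and the polyamine acetyltransferase Sat1 from 3.91, 3.21 and 1.88 to 14.9, 12.9 and 15.3 FPKM (2.28 ± 0.26, adjusted p = 5.4e-04). Phgdh, at the start of serine synthesis, was at 0.817, 1.04 and 3.18 FPKM in LPS-MIC-1 with replicate 3 the highest, and its call was kept in 1 of 6 fits that each left out 1 library.

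Contractile genes moved in both directions. The 6 most abundant ones were lower by less than the fold threshold, and markers of muscle fibers summed to 242800 to 247800 FPKM in control, 229500 to 233100 FPKM in LPS and 183500 to 197900 FPKM in LPS-MIC-1. Skeletal actin (Acta1) was at 53382, 56819.5 and 51768 FPKM in control and 38203, 39434 and 34108 FPKM in LPS-MIC-1 (−0.54 ± 0.06, adjusted p = 7.4e-04), while the fast myosin heavy chain Myh4, the main one in this muscle, stood at 10657, 10017 and 10900.2 and 11212, 10925 and 10630.4 FPKM with overlapping groups (adjusted p = 0.31). Of 43 tested sarcomere genes, 17 were called higher and 2 lower. Csrp3 (MLP), a Z-disc protein with the highest log2 fold change of the list, rose from 0.784, 1.99 and 0.784 to 130.2, 136 and 128 FPKM (6.80 ± 0.33, adjusted p = 1.6e-05), the ankyrin repeat protein Ankrd2 from 16.2, 14.3 and 14.1 to 725, 717 and 687 FPKM (5.57 ± 0.06, adjusted p = 6.0e-08), and its relative Ankrd1 from 0.466, 0.741 and 0.562 to 20.7, 19.8 and 15.3 FPKM. Cardiac actin (Actc1) fell from 2789, 2902 and 2812 to 1130.4, 1203 and 1087 FPKM (−1.31 ± 0.04, adjusted p = 3.0e-06), and LPS stood above control at 4106, 4064 and 4001 FPKM.

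Genes of slow fibers were among the rises. The slow myosin heavy chain Myh7 was at 0.162, 0.124 and 0.189 FPKM in control and 10.3, 10.5 and 10.2 FPKM in LPS-MIC-1 (5.34 ± 0.16, adjusted p = 1.9e-06), the slow regulatory light chain Myl2 at 1.06, 0.8995 and 0.603 and 54.1, 45.9 and 47.8 FPKM (5.72 ± 0.19, adjusted p = 2.9e-06), and slow troponin T (Tnnt1) at 0.704, 0 and 0.8797 and 15.4, 13.9 and 11.6 FPKM (4.99 ± 0.85, adjusted p = 0.0033). Slow troponin C (Tnnc1), slow troponin I (Tnni1) and Myl3, singled out after their values were seen, were at 37.8, 43.97 and 40.5, 13.7, 15.1 and 11.5 and 43.5, 44.1 and 39.2 FPKM in LPS-MIC-1 and at 1.53, 2.06 and 2.21, 0.904, 1.12 and 0.521 and 17.2, 15.4 and 16.6 FPKM in control. All were above control in each treated library, and their levels per length remained far below that of Myh4. The slow calcium pump Atp2a2 and sarcolipin (Sln) were 3.42-fold and 4.92-fold higher, but Casq2, the calsequestrin of slow and cardiac muscle, fell from 3.71, 3.51 and 3.48 to 1.297, 0.989 and 0.993 FPKM (−1.63 ± 0.15, adjusted p = 2.0e-04). Cardiac muscle markers summed to 2.50 to 3.80 FPKM in control and 2.81 to 3.82 FPKM in LPS-MIC-1.

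Single myogenic and synaptic genes differed strongly, in both directions. Myod1, the master factor of the myogenic lineage, fell from 22.95, 23.1 and 19.6 to 4.69, 5.27 and 4.21 FPKM (−2.19 ± 0.11, adjusted p = 1.6e-05), and Ky (kyphoscoliosis peptidase), needed for muscle growth, from 70.5, 67.4 and 65.8 to 5.48, 5.62 and 5.36 FPKM (−3.61 ± 0.05, adjusted p = 1.2e-07). Runx1, which rises in denervated muscle, went from 0.243, 0.188 and 0.235 to 3.09, 3.101 and 3.44 FPKM (3.36 ± 0.22, adjusted p = 5.2e-05), and Musk, the receptor kinase of the neuromuscular junction, from 2.18, 1.8 and 1.76 to 16.7, 17.1 and 15.3 FPKM (3.04 ± 0.10, adjusted p = 3.1e-06). Of 16 tested myogenic genes, 2 were higher and 3 lower (12.5% and 18.8%). Of 33 genes for excitation-contraction coupling and the neuromuscular junction, 3 were higher and 2 lower, with a median log2 fold change of 0.04. The shares of this last list, 9.09% and 6.06%, were near the 9.77% and 5.82% of all genes tested. The muscle program as a whole had 22 of 92 higher and 7 lower (23.9% and 7.61%), and 23 and 6 without replicate 3.

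**Figure D5:**
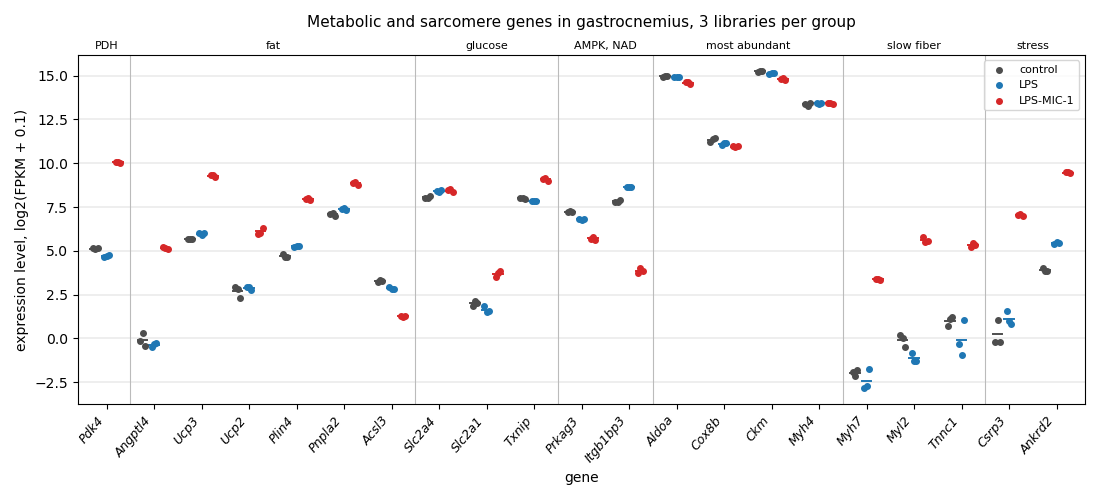
Expression level, as log2(FPKM + 0.1), of 21 metabolic and sarcomere genes in the control (gray), LPS (blue) and LPS-MIC-1 (red) libraries, 3 each, with a short line at each group mean and gene groups named above (PDH, pyruvate dehydrogenase). Pdk4, Angptl4, Ucp3, Myh7, Myl2 and Csrp3 are highest in LPS-MIC-1, Itgb1bp3 and Acsl3 are lowest there, and Myh4 is level across the 3 groups.

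Leaving out LPS-MIC-1 replicate 3 gave 879 genes higher and 584 lower among all genes. Of these, 828 and 498 were also called with all 6 libraries. Among members of the lists, 22 had a level over 1 FPKM in replicate 3 that was over 2 times the highest of the other 5 libraries. Besides the macrophage markers, Cd14, Ccl3, Ccl9, Pkm2 and Phgdh named above, they included cathepsin S (Ctss) at 1.74, 1.31 and 9.11 FPKM in LPS-MIC-1 and the serine synthesis gene Psat1 at 0.765, 0.773 and 5.16 FPKM, neither of which was called. Of the 22, 6 were called with all libraries and 2 without replicate 3.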

How the data were processed

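RNA of 9 gastrocnemius samples, 3 per group, was sequenced. The authors pseudoaligned the reads with kallisto, used tximport to sum them by gene, and the deposited unit is FPKM, with 1 value for each gene in each library. The build mm9 is named in the submitters' processing notes. Base means of the deposited DESeq2 table (a depth signal, normalized counts averaged over the 6 libraries) were used for depth only, and its columns of fold changes and p-values were not used. The FPKM table held 9 further per-sample columns without a name, which were not used.

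Genes with a mean over 1 FPKM were fitted with limma 3.58.1 (R 4.3.3) on log2(FPKM + 0.1), with eBayes and a trend, and p-values were adjusted over all 9519 genes. FPKM holds no read counts, so no count model was run and no counting interval can be given. LPS libraries were compared in a 3-group fit over 9 libraries (9475 genes). On simulated data with independent normal noise and 200 changed genes among 9519, 89.5% were recovered with 2 wrong calls. All planted changes were larger than the fold threshold, whereas 15.6% of tested genes were called in the data themselves. The simulated rates therefore do not give the error rate of these calls.

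Gene lists (30 for programs, 16 for cell and tissue markers; 1094 of 1122 symbols found) and members were chosen with earlier results of these data known. Genes named were the 6 largest non-overlapping rises and falls (small RNA genes left out) and, per list, up to 6 called genes in each direction. These called genes also had to have groups that did not overlap. Further named genes were the 3 most abundant per list, 24 set genes such as Lcn2 and Pdk4, and the 3 most abundant called genes outside the lists in each direction. Others (Cd14, Saa2, Irak3, Ccl3, Ccl9, Csf1r, Ctss, Psat1, Cpt1b, Tnnc1, Tnni1, Myl3, Elane, Stfa2, Aif1) were chosen after their values were seen. A few genes that the rule names are not reported here. Current names of older symbols came from a RefSeq table of mouse assembly GRCm38.p6, in which 9456 of the 9519 symbols matched. Alternatives covered the pseudocount, filter, scaling, variance trend, libraries in the fit, a replicate block, the p and fold thresholds, and leaving out each library.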

Additional observations from a re-analysis of the deposited data

How the results depend on the processing

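FPKM values carry no depth, so low levels have unknown counting error, and with 3 libraries a group 1 library can decide a call. Quantile normalization moved the median of all genes to −0.10 on the log2 scale, from 0.02, and gave 796 genes higher and 712 lower (52.8% of calls higher, against 62.7%). Of 193 named genes called, 172 kept direction and call in each of 15 settings in which they were tested, and none of the 193 reversed. Genes named for their fold change had to have groups without overlap, so for them a lack of reversals was largely fixed by the choice. Among all genes, 828 of 930 higher calls and 498 of 554 lower calls were kept without LPS-MIC-1 replicate 3. Reversals were not counted for named genes that were not called. Ctsd, for example, had a log2 fold change of −0.01 with all libraries and 0.02 without LPS-MIC-1 replicate 3. Of the 193 called genes that the naming rule picked, 7 lost the call when some single library was left out, among them Slc30a2, Ccl21a, Eya1 and Phgdh. Genes outside the rule, such as Irak3, Ccl3 and Ccl9, are not in this count. Leaving out each library in turn gave 874 to 987 genes higher and 499 to 584 lower. The replicate numbers did not pair the samples (deviations of same-numbered libraries correlated at 0.01, 0.04 and −0.05), and a replicate block gave 929 genes higher and 543 lower. The cause of the following shifts beyond 1.5 times was not tested where fewer or more genes tested, or a dropped threshold, did not make it. A pseudocount of 1 left 336 genes lower, and no filter on the mean gave 900 lower. A mean over 5 FPKM left 531 genes higher and 200 lower, 52 acute-phase members higher, 5 matrix members higher and 4 muscle members lower. Quantile normalization gave 8 acute-phase and 7 wasting members lower. With no fold threshold, 2793 genes were higher and 2490 lower, acute-phase members lower numbered 14, and the higher and lower counts were 90 and 19 for wasting, 24 and 47 for matrix, 71 and 112 for metabolic and 41 and 34 for muscle members. An unadjusted p, which moved the counts by less than 1.5 times, gave 961 higher and 574 lower.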

Other observations

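Genes outside the lists also changed in LPS-MIC-1 against control. AA467197 had one of the largest rises, from 0.164, 0 and 0 to 44.2, 42.8 and 38.8 FPKM (8.25 ± 0.39 on the log2 scale, adjusted p = 1.3e-05). The abundant genes Tacc2, a coiled-coil protein of the centrosome and microtubules, and Mustn1, a small nuclear protein of the musculoskeletal system, rose from 63.9, 59.6 and 60.1 to 539, 549 and 511 FPKM and from 94.5, 104 and 98.8 to 486, 464 and 436 FPKM, 8.71-fold and 4.66-fold. The gene 2310050B05Rik rose from 196, 190.3 and 193 to 529, 526 and 512 FPKM. Among the falls, the calmodulin gene Calm2 went from 160.2, 168 and 180.4 to 28.4, 28.1 and 31.5 FPKM (−2.53 ± 0.07, adjusted p = 1.1e-06), Dysfip1 (now Ppp1r27, a phosphatase subunit) from 331, 349 and 347 to 51.3, 53.9 and 48.2 FPKM (−2.74 ± 0.05, adjusted p = 3.6e-07), and Ptpla (now Hacd1, an enzyme of very long chain fatty acid elongation) from 166, 177 and 159.9 to 70.4, 66.6 and 66.2 FPKM. Treated and control libraries did not overlap for any of these 7 genes. Lower in abundance, the apelin receptor Aplnr fell from 6.01, 5.5 and 5.98 to 0.107, 0.0824 and 0.117 FPKM (−4.88 ± 0.21, adjusted p = 7.9e-06), the retinoic acid hydroxylase Cyp26b1 from 6.62, 5.904 and 5.24 to 0.176, 0.124 and 0.0293 FPKM (−4.91 ± 0.33, adjusted p = 6.3e-05), and Sec14l5 from 23.1, 19.95 and 21.4 to 0.874, 0.519 and 0.615 FPKM (−4.83 ± 0.18, adjusted p = 4.5e-06). In LPS these 3 lay between, with Aplnr at 3.39, 3.58 and 3.52 FPKM, Cyp26b1 at 2.12, 2.05 and 1.64 FPKM and Sec14l5 at 12.3, 10.9 and 11.7 FPKM. Clstn1, a calsyntenin, was at 2.45, 4.23 and 2.46 FPKM in control and listed at 0 in each LPS and LPS-MIC-1 library.

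Markers of other cells and tissues were read in the same libraries. The erythrocyte list summed to 436.9 to 529.3 FPKM in control, 606.5 to 650.9 FPKM in LPS and 542.0 to 604.5 FPKM in LPS-MIC-1. None of its 3 tested genes was called. The adipocyte list summed to 4711 to 4861 FPKM in control, 3430 to 3474 FPKM in LPS and 2879 to 3117 FPKM in LPS-MIC-1. Nearly all of the sum in control and LPS-MIC-1 was Car3, which muscle also expresses. Of 3 tested Schwann cell and nerve markers 1 was called higher, Pmp22, from 2.24, 5.97 and 4.54 to 9.45, 13.6 and 12.3 FPKM. Intestine and epithelium markers summed to 4.99 to 6.66 FPKM in control, 6.79 to 7.56 FPKM in LPS and 18.04 to 20.4 FPKM in LPS-MIC-1. The 1 tested gene of that list, Lgals4, was 3.89-fold higher in LPS-MIC-1 than in control. Skin markers summed to at most 1.11 FPKM and spleen and kidney markers to at most 0.899 FPKM in any of the 6 libraries. Genes of the Y chromosome summed to 37.3 to 39.6 FPKM in control and 38.3 to 43.6 FPKM in LPS-MIC-1.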
